A study of Mus musculus with 12 samples.

Results

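To describe how the enzymes that make prostaglandins and leukotrienes responded to intracerebral hemorrhage (ICH) with and without microglial Fabp4, 10 genes were read from a count table of 21956 mouse genes by their symbols: Pla2g4a, Ptgs1, Ptgs2, Ptges, Ptgds, Hpgds, Alox5, Alox5ap, Ltc4s and Alox15. Each of the 10 symbols matched 1 row. RNA-seq had been performed on brain tissue next to the hematoma, taken 48 h after collagenase was injected into the right striatum, or on matching tissue of sham-operated mice, whose interval after surgery the sources do not give. There were 12 libraries of 1 mouse each, and the 4 groups, Sham-Fabp4flox/flox, Sham-Fabp4CKO, ICH-Fabp4flox/flox and ICH-Fabp4CKO, held 3 mice apiece. All mice carried floxed Fabp4 alleles, which left the gene intact in Fabp4flox/flox mice. The Fabp4CKO mice also carried a tamoxifen-inducible Cre recombinase under the microglial gene Tmem119 (TMEM119creERT2) and were dosed with tamoxifen on 7 days (150 mg/kg daily), with surgery 14 days after the last dose. Whether the Fabp4flox/flox mice also received tamoxifen is not given in the sources used here, so the Cre allele, tamoxifen and the loss of Fabp4 cannot be told apart. Age and sex of the sequenced mice are likewise not given; the methods state them for the wild-type mice of the study only.

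Prostaglandins and leukotrienes are lipid signals made from arachidonic acid. The phospholipase encoded by Pla2g4a frees arachidonic acid from membranes, the cyclooxygenases encoded by Ptgs1 and Ptgs2 turn it into prostaglandin H2, and terminal synthases turn that into prostaglandin E2 (Ptges) or prostaglandin D2 (Ptgds and Hpgds). In the other branch 5-lipoxygenase (Alox5), helped by its activating protein (Alox5ap), makes leukotriene A4, which Ltc4s joins to glutathione. Ptgs2 is known in the brain as a gene of active neurons as well as of inflamed tissue, Ptgds as an abundant transcript of oligodendrocytes, meninges and choroid plexus, and Hpgds, Alox5 and Alox5ap as genes of microglia and other myeloid cells.

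Levels are given as CPM, the reads of a gene per 1000000 reads after TMM scaling over the 12 libraries, and as CPM per kb of exon where different genes are compared. Total counts ranged from 15650813 to 22406216 per library. Fabp4 itself had 46, 63 and 24 reads in ICH-Fabp4flox/flox mice 1, 2 and 3, against 5, 3 and 10 reads in the ICH-Fabp4CKO mice and 0 to 2 reads in each sham mouse. Several libraries stood apart. Mouse 1 of ICH-Fabp4CKO had 1 read over 4 Y-linked genes, where every other library had 1302 to 2251. Mouse 1 of ICH-Fabp4flox/flox had 16.3% mitochondrial reads, against 7.90% to 11.9% elsewhere. The summed level of 6 choroid plexus markers was 860 to 3199 CPM in Sham-Fabp4flox/flox and at most 53.8 CPM in every library of the other groups. The numbers of the mice are names only and do not link mice of different groups. Because the tissue was bulk, fewer cells of a type and less RNA per cell cannot be told apart.

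Promoter sequences of the members are described first. For 8 of the 10 genes the RefSeq table of GRCm38.p6 gave the 250 bases before the transcription start, and these were searched on both strands for a CRE core (TGACGT), a PU.1 site (GAGGAAGT), a palindromic C/EBP site (TTGCGCAA) and the NF-kB consensus; no motif overlapped another. The motif letters were chosen after the sequences were seen, so the shares over all windows given below measure no enrichment. The 4 windows that held a motif are printed 5′ to 3′ on the strand of the gene, with the motif in capitals: Ptgs1 at chr2:36230176-36230425 (plus strand) and Hpgds at chr6:65144731-65144980 (minus strand) each held the PU.1 letters, Ptgs2 at chr1:150099781-150100030 (plus strand) held the C/EBP letters and Ptgds at chr2:25469750-25469999 (minus strand) held the NF-kB consensus.
Ptgs1: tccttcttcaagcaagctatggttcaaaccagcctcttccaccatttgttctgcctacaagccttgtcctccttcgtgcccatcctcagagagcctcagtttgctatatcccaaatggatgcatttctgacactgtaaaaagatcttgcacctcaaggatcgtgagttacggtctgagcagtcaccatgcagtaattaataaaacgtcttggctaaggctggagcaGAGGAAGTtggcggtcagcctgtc
Hpgds: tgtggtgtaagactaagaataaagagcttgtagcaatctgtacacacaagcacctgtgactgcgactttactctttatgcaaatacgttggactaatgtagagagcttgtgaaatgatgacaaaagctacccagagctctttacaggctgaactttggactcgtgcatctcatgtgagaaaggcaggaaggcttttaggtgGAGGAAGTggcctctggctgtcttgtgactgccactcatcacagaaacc
Ptgs2: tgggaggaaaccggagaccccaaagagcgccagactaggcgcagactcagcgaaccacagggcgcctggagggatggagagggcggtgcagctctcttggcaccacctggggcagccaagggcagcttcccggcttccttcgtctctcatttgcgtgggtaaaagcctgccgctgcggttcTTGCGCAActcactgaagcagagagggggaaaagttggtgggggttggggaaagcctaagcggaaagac
Ptgds: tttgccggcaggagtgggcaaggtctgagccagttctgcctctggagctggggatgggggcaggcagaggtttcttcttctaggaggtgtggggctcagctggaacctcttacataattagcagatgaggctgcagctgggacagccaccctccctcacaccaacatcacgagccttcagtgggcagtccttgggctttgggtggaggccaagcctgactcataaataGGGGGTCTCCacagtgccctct
The PU.1 letters lay 24 to 17 bases before the start in Ptgs1 and 49 to 42 bases before it in Hpgds, the C/EBP letters 69 to 62 bases before it in Ptgs2, and the NF-kB consensus 22 to 13 bases before it in Ptgds. Of 32851 promoter windows of the same length in the table, 2.44% held the PU.1 letters, 0.164% the C/EBP letters, 3.90% the NF-kB consensus and 6.47% the CRE core. The windows of Ptges, Pla2g4a, Alox5 and Ltc4s held none of these letters. A match describes the letters only.

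After ICH, transcripts along both branches were more abundant in Fabp4flox/flox mice. Of the 9 members whose counts passed the filter on low values, 7 rose and 1, Ptgds, fell (edgeR quasi-likelihood F-test, Benjamini-Hochberg adjusted over 14719 genes), where 26.2% of all tested genes rose and 19.3% fell. In Fabp4CKO mice 8 of 9 rose and Ptgds again fell, where 24.5% of 14737 tested genes rose and 11.1% fell. Groups without overlap, given below for single members, were common over all tested genes. In Fabp4flox/flox mice 34.4% of tested genes were higher and 27.4% lower after ICH without overlap, and in Fabp4CKO mice 33.2% and 28.9%. The median log2 fold change of the 9 members was 1.91 in Fabp4flox/flox and 2.87 in Fabp4CKO mice, beside 0.02 and 0.01 over all tested genes. The largest of the 9 differences in both genotypes was that of Alox5ap. The calls in Fabp4CKO mice depended on having all 3 sham mice: leaving out any Sham-Fabp4CKO mouse left 2 or 3 of the 8 higher calls, with the adjusted p of each lost call between 0.0501 and 0.0655 and no direction changed. Over all genes the same settings left 847, 842 and 751 calls of 5247, so the loss was not particular to the members.

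**Figure D1:**
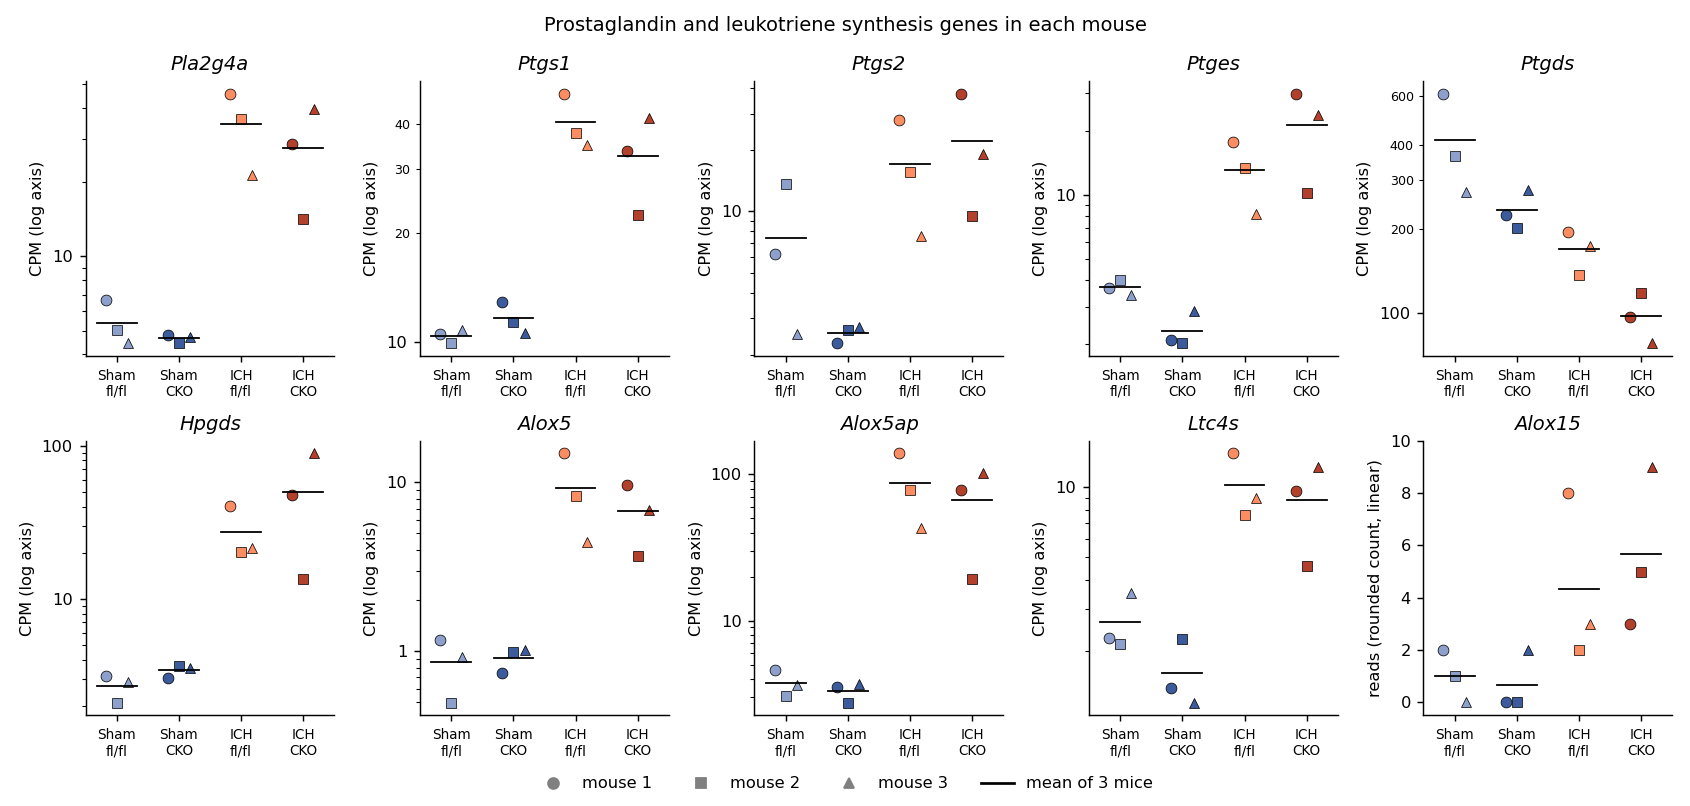
Level of each of the 10 genes in each of the 12 mice, as CPM on a log axis (Alox15 as reads on a linear axis); symbols mark mice 1 to 3 of a group, colors the groups and black lines the mean of 3 mice. The ICH mice lie above both sham groups for Pla2g4a, Ptgs1, Ptges, Hpgds, Alox5, Alox5ap and Ltc4s, whereas Ptgds is lower after ICH and Ptgs2 overlaps between Sham- and ICH-Fabp4flox/flox.

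Pla2g4a, the gene of the phospholipase that starts the pathway, was at 6.65, 5.04 and 4.44 CPM in the 3 Sham-Fabp4flox/flox mice and at 45.7, 36.0 and 21.3 CPM in the ICH-Fabp4flox/flox mice. In Fabp4CKO mice it was at 4.81, 4.43 and 4.69 CPM after sham and at 28.6, 14.1 and 39.7 CPM after ICH. Every ICH mouse lay above every sham mouse. The log2 fold change was 2.62 (SE 0.30, n = 3 per group, adjusted p = 0.000793) in Fabp4flox/flox and 2.57 (SE 0.38, adjusted p = 0.00801) in Fabp4CKO mice by the edgeR F-test with Benjamini-Hochberg adjustment.

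The cyclooxygenase genes differed from each other in how evenly they responded. Ptgs1, the constitutive form, was at 10.5, 9.91 and 10.8 CPM in Sham-Fabp4flox/flox and at 48.5, 37.7 and 35.0 CPM in ICH-Fabp4flox/flox mice. The Fabp4CKO mice had it at 12.9, 11.4 and 10.6 CPM after sham and at 33.6, 22.4 and 41.6 CPM after ICH. The sham mice were tightly grouped and none overlapped an ICH mouse, with log2 fold changes of 1.91 (SE 0.16, adjusted p = 0.000352) and 1.49 (SE 0.25, adjusted p = 0.0101) in the same edgeR test with Benjamini-Hochberg adjustment.

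Ptgs2, the inducible form, was at 6.17, 13.6 and 2.53 CPM in Sham-Fabp4flox/flox and at 28.0, 15.6 and 7.55 CPM in ICH-Fabp4flox/flox mice. Sham mouse 2 lay above ICH mouse 3, so the groups overlapped. The log2 fold change of 1.14 (SE 0.64) did not pass the test (adjusted p = 0.176, the edgeR F-test with Benjamini-Hochberg adjustment). It was 0.60 without ICH-Fabp4flox/flox mouse 1 and 1.86 without Sham-Fabp4flox/flox mouse 2, and did not pass in either case. In Fabp4CKO mice the sham values were even, at 2.27, 2.64 and 2.71 CPM, and the ICH values were 37.6, 9.49 and 19.0 CPM. All 3 ICH mice were above all 3 sham mice there, and Ptgs2 rose by 3.11 on the log2 scale (SE 0.52, adjusted p = 0.0101, same test with Benjamini-Hochberg adjustment by edgeR). Without ICH-Fabp4CKO mouse 1 that value was 2.48. The sham spread of Ptgs2 followed the order of Slc17a7, a marker of cortical excitatory neurons, which was at 274, 394 and 58.5 CPM in Sham-Fabp4flox/flox mice 1, 2 and 3 and at 35.9 to 81.8 CPM in Sham-Fabp4CKO. Immediate early genes did not follow it, since their summed level was 344, 320 and 430 CPM in those Sham-Fabp4flox/flox mice. It was 312 to 1016 CPM in Sham-Fabp4CKO. The 6 neuron markers, of which Slc17a7 is 1, summed to 4574, 5256 and 3861 CPM in Sham-Fabp4flox/flox, in the order of Ptgs2. In Sham-Fabp4CKO they summed to 3956 to 4259 CPM, within that range. Between the sham genotypes Slc17a7 differed by -1.88 on the log2 scale, and the other neuron markers by -0.20 to 0.40. The 6 striatal neuron markers summed to 1270, 1474 and 3913 CPM in Sham-Fabp4flox/flox, in another order. Between sham and ICH Fabp4flox/flox mice Slc17a7 fell by 3.83 on the log2 scale, opposite to the direction of Ptgs2. The part of tissue composition in the Ptgs2 values was not tested.

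Per kb of exon, Ptgs1 was the higher cyclooxygenase transcript in 11 of 12 mice, the exception being Sham-Fabp4flox/flox mouse 2. The ratio of Ptgs2 to Ptgs1 per kb was 0.498, 1.16 and 0.199 in Sham-Fabp4flox/flox and 0.490, 0.351 and 0.183 in ICH-Fabp4flox/flox mice. In Fabp4CKO mice it was 0.149, 0.197 and 0.217 after sham and 0.948, 0.359 and 0.387 after ICH. The ratio therefore overlapped between sham and ICH in Fabp4flox/flox mice and did not in Fabp4CKO mice.

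Ptges, which encodes the inducible prostaglandin E synthase, was at 3.66, 4.00 and 3.41 CPM in Sham-Fabp4flox/flox and at 17.6, 13.4 and 8.13 CPM in ICH-Fabp4flox/flox mice. Its values in Fabp4CKO mice were 2.08, 2.02 and 2.85 CPM after sham and 29.8, 10.2 and 23.6 CPM after ICH. No ICH mouse overlapped a sham mouse of its genotype. Ptges rose by 1.77 on the log2 scale (SE 0.29, adjusted p = 0.00319) in Fabp4flox/flox and by 3.19 (SE 0.44, adjusted p = 0.00702) in Fabp4CKO mice by the edgeR F-test with Benjamini-Hochberg adjustment. The genes of the other prostaglandin E synthases did not pass in either genotype. Ptges2 had log2 fold changes of -0.19 and -0.38 in Fabp4flox/flox and Fabp4CKO mice, and Ptges3 of 0.18 and -0.06.

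The genes of the prostaglandin D synthases went opposite ways. Ptgds, the lipocalin-type synthase, was at 614, 367 and 273 CPM in Sham-Fabp4flox/flox and at 196, 138 and 175 CPM in ICH-Fabp4flox/flox mice. In Fabp4CKO mice it was at 225, 202 and 276 CPM after sham and at 97.4, 118 and 78.1 CPM after ICH. Every ICH mouse lay below every sham mouse. Ptgds fell by 1.34 on the log2 scale (SE 0.31, adjusted p = 0.0126) in Fabp4flox/flox and by 1.26 (SE 0.21, adjusted p = 0.00978) in Fabp4CKO mice by the edgeR F-test with Benjamini-Hochberg adjustment. Leaving out ICH-Fabp4flox/flox mouse 2 put the adjusted p of the first at 0.0535, and leaving out Sham-Fabp4CKO mouse 1 or 3 put that of the second at 0.0527 or 0.0509 in the same edgeR test.

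The 6 choroid plexus markers moved with this comparison in Fabp4flox/flox mice. In the test 6 of 6 markers fell, where 19.3% of all tested genes fell. Their summed level was 860, 1626 and 3199 CPM in Sham-Fabp4flox/flox mice 1, 2 and 3 and 20.7 to 29.8 CPM in ICH-Fabp4flox/flox. Within the sham mice the order was opposite to that of Ptgds, which was highest in mouse 1, where the markers were lowest, and lowest in mouse 3, where they were highest. In Fabp4CKO mice the sum was 45.7 to 53.8 CPM after sham and 15.1 to 24.1 CPM after ICH. There 3 of 5 tested markers were lower, where 11.1% of all tested genes fell. Ptgds fell by an amount like that in Fabp4flox/flox mice. The 6 oligodendrocyte markers summed to 8403 to 14861 CPM in Sham- and 18434 to 28453 CPM in ICH-Fabp4flox/flox, the opposite direction to Ptgds, and to 10135 to 10972 CPM in Sham- and 7137 to 11460 CPM in ICH-Fabp4CKO. The 7 markers of meningeal fibroblasts summed to 64.0, 44.7 and 33.8 CPM in Sham-Fabp4flox/flox mice 1, 2 and 3, the same order as Ptgds. Their sum was 22.4 to 25.3 CPM in Sham-Fabp4CKO and 68.3 to 1514 CPM over the ICH mice, opposite to Ptgds between sham and ICH. The part of tissue composition in the Ptgds values was not tested.

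Hpgds, the hematopoietic prostaglandin D synthase, was at 3.13, 2.08 and 2.84 CPM in Sham-Fabp4flox/flox and at 40.5, 20.1 and 21.4 CPM in ICH-Fabp4flox/flox mice. For Fabp4CKO mice the values were 3.05, 3.63 and 3.54 CPM after sham and 47.5, 13.4 and 89.3 CPM after ICH, the widest relative spread of the 9 tested members within a group. No ICH mouse overlapped a sham mouse. The log2 fold change was 3.29 (SE 0.33, adjusted p = 0.000522) in Fabp4flox/flox and 3.88 (SE 0.69, adjusted p = 0.0118) in Fabp4CKO mice by the edgeR F-test with Benjamini-Hochberg adjustment. The second was 3.13 without ICH-Fabp4CKO mouse 3.

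Ptgds stayed the more abundant of the pair per kb of exon in all 12 mice, but the distance narrowed. The ratio of Hpgds to Ptgds per kb was 0.00131, 0.00146 and 0.00268 in Sham-Fabp4flox/flox and 0.0529, 0.0375 and 0.0313 in ICH-Fabp4flox/flox mice. It was 0.00348, 0.00461 and 0.00329 in Sham-Fabp4CKO and 0.125, 0.0292 and 0.293 in ICH-Fabp4CKO mice. Every ICH mouse had a higher ratio than every sham mouse. ICH-Fabp4CKO mouse 3 had the highest ratio and ICH-Fabp4CKO mouse 2 the lowest after ICH. The sum of border-associated macrophage markers was highest in mouse 3, at 329 CPM, against 27.7 CPM in mouse 2. Also highest in mouse 3 were the microglia, monocyte and macrophage, neutrophil and meningeal fibroblast sums, at 901, 452, 322 and 1514 CPM. Which cells account for the ratio was not tested.

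**Figure D2:**
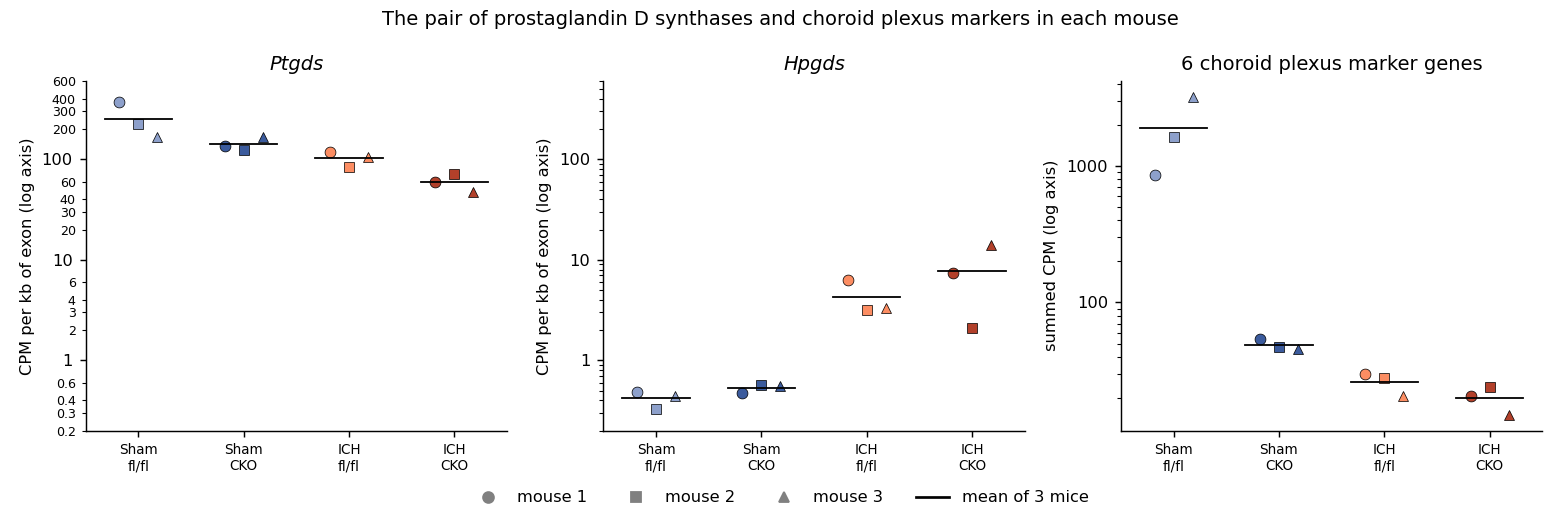
Ptgds and Hpgds in CPM per kb of exon, on log axes of the same range, and the summed CPM of 6 choroid plexus markers, on a log axis of its own, in each mouse; black lines are means of 3 mice. Ptgds fell and Hpgds rose after ICH in both genotypes, and the choroid plexus markers were high in the 3 Sham-Fabp4flox/flox mice, in the opposite order to Ptgds.

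On the leukotriene side, Alox5 was among the lowest members, at 1.16, 0.493 and 0.930 CPM in Sham-Fabp4flox/flox and at 14.9, 8.36 and 4.46 CPM in ICH-Fabp4flox/flox mice. The Fabp4CKO mice stood at 0.740, 0.985 and 1.01 CPM after sham and at 9.63, 3.68 and 6.89 CPM after ICH. The ICH and sham mice did not overlap. The log2 fold change was 3.35 (SE 0.52, adjusted p = 0.00251) in Fabp4flox/flox and 2.87 (SE 0.41, adjusted p = 0.00760) in Fabp4CKO mice by the edgeR F-test with Benjamini-Hochberg adjustment.

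Alox5ap, whose product presents arachidonic acid to 5-lipoxygenase, was at 4.58, 3.07 and 3.62 CPM in Sham-Fabp4flox/flox and at 140, 78.1 and 43.0 CPM in ICH-Fabp4flox/flox mice. In Fabp4CKO mice it was at 3.51, 2.73 and 3.68 CPM after sham and at 78.8, 19.3 and 103 CPM after ICH. The lowest ICH mouse was well above the highest sham mouse in both genotypes. Alox5ap was 22.2-fold higher after ICH in Fabp4flox/flox mice (log2 fold change 4.48, SE 0.44, adjusted p = 0.000520) and 20.3-fold higher in Fabp4CKO mice (4.34, SE 0.65, adjusted p = 0.00801; the edgeR F-test with Benjamini-Hochberg adjustment). Per kb of exon, Alox5ap went from the level of Ptgs1 and Ltc4s in Sham-Fabp4flox/flox tissue to the highest group mean after Ptgds, at 61.3 ± 34.5 CPM per kb (SD, n = 3) in ICH-Fabp4flox/flox and 47.2 ± 30.3 in ICH-Fabp4CKO. Values of Alox5ap and Ptgds overlapped in both ICH groups, and in ICH-Fabp4CKO mouse 3 Alox5ap, at 72.4 CPM per kb, was above Ptgds, at 47.4.

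Ltc4s, the leukotriene C4 synthase gene, was at 2.27, 2.14 and 3.51 CPM in Sham-Fabp4flox/flox and at 13.9, 7.61 and 8.93 CPM in ICH-Fabp4flox/flox mice. The Fabp4CKO values were 1.39, 2.24 and 1.20 CPM after sham and 9.57, 4.58 and 12.1 CPM after ICH. The groups did not overlap, and Ltc4s rose by 1.90 on the log2 scale (SE 0.32, adjusted p = 0.00365) and by 2.44 (SE 0.44, adjusted p = 0.0124) by the edgeR F-test with Benjamini-Hochberg adjustment. Without ICH-Fabp4CKO mouse 1, the library with 1 Y-linked read, the adjusted p of the second was 0.0512 in the same edgeR test, and the other 7 higher calls in Fabp4CKO mice were kept. Short antisense or unclassified transcripts overlap exons of Ltc4s by 268 bases, of Alox5ap by 189 bases and of Ptgs1 by 148 bases in the GENCODE annotation. They are no rows of the count table, and the library kit does not mark strand, so reads of a gene and of its antisense partner cannot be told apart there.

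Alox15, which encodes 12/15-lipoxygenase, was near the limit of detection. It had 2, 1 and 0 reads in the Sham-Fabp4flox/flox mice, 0, 0 and 2 in Sham-Fabp4CKO, 8, 2 and 3 in ICH-Fabp4flox/flox and 3, 5 and 9 in ICH-Fabp4CKO. It did not pass the filter on low counts in any comparison, and a difference was not detectable at this depth. With no filter, its adjusted p in the edgeR F-test with Benjamini-Hochberg adjustment was 0.149 in Fabp4flox/flox and 0.0668 in Fabp4CKO mice for ICH against sham, and no fold is given because the sham mice lay at or under the floor of 3 reads.

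**Figure D3:**
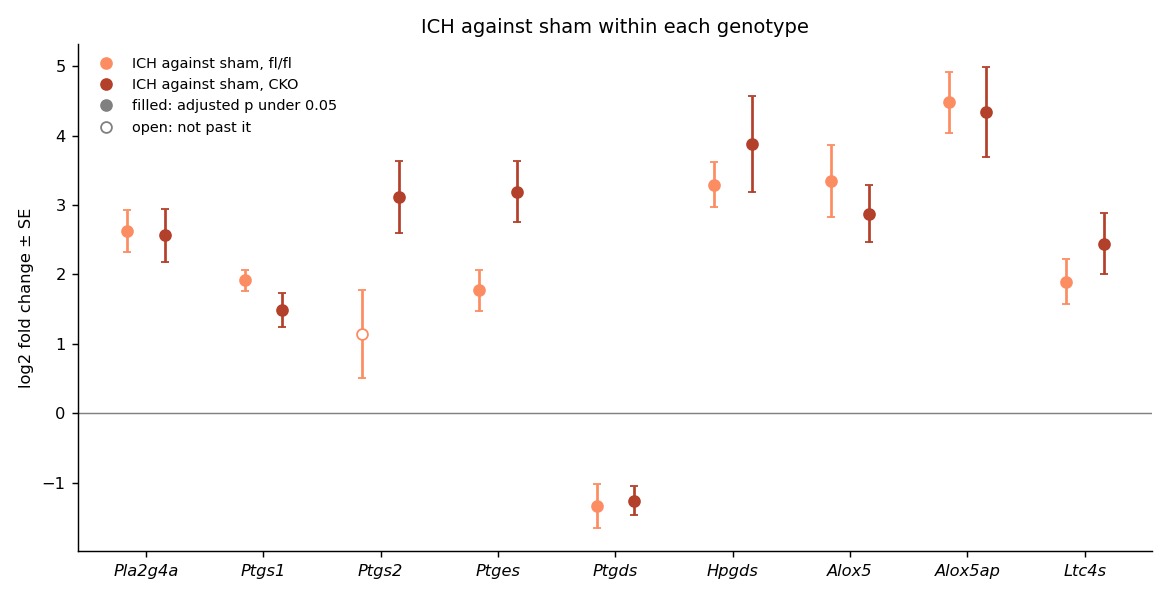
Log2 fold change of ICH against sham, with its SE, for the 9 tested members in Fabp4flox/flox (light) and Fabp4CKO mice (dark); filled points passed an adjusted p of 0.05. All points are filled except Ptgs2 in Fabp4flox/flox mice, at 1.14, and Ptgds lies below 0 in both genotypes.

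Ordered by mean CPM per kb, sham tissue of Fabp4flox/flox mice had Ptgds first at 253 ± 107 (SD, n = 3). Ptgs1, Alox5ap and Ltc4s followed at 2.68 ± 0.12, 2.64 ± 0.54 and 2.60 ± 0.75, which did not differ beyond their spread. Ptgs2, Ptges and Pla2g4a stood next at 1.62 ± 1.23, 0.939 ± 0.075 and 0.841 ± 0.179, of which Ptgs2 overlapped the others, and Hpgds and Alox5 came last at 0.418 ± 0.084 and 0.209 ± 0.082, above Alox15, which had 0 to 2 reads. In ICH-Fabp4flox/flox tissue the order was Ptgds at 103 ± 17.9, Alox5ap at 61.3 ± 34.5, then Ptgs1 and Ltc4s at 10.4 ± 1.84 and 10.02 ± 3.29. Pla2g4a, Hpgds, Ptgs2, Ptges and Alox5 followed between 5.38 ± 1.92 and 2.25 ± 1.29, where neighbours did not differ beyond their spread. In ICH-Fabp4CKO tissue Hpgds at 7.80 ± 5.92 and Ptges at 5.39 ± 2.54 stood above Ptgs2 at 4.81 ± 3.12 and Pla2g4a at 4.30 ± 2.01, again within the spread.

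Whether the knockout altered these genes was asked in ICH tissue, in sham tissue and as the difference between the ICH effects. In ICH tissue, 0 of 9 members differed between Fabp4CKO and Fabp4flox/flox mice by the edgeR F-test with Benjamini-Hochberg adjustment, where 0% of 14600 tested genes were higher and 0% lower. At an unadjusted p under 0.05 that test gave 1777 genes and 1 member, and DESeq2 gave 578 genes at its adjusted threshold and 0 members. That member was Ptgds, whose 3 ICH-Fabp4CKO mice, at 78.1 to 118 CPM, all lay below the 3 ICH-Fabp4flox/flox mice, at 138 to 196 CPM. Its log2 difference, Fabp4CKO minus Fabp4flox/flox, was -0.74 (SE 0.22, adjusted p = 0.339 in the edgeR F-test with Benjamini-Hochberg adjustment). Over the alternative settings in edgeR and DESeq2 its adjusted p went from 0.0577 to 0.718, so none passed. With 1 mouse left out the difference lay between -0.90 and -0.60. The oligodendrocyte markers were also lower in ICH-Fabp4CKO, at 7137 to 11460 against 18434 to 28453 CPM, and their part in the Ptgds difference was not tested.

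For the other 8 tested members the ICH groups overlapped. Over all tested genes 11.5% were lower and 8.3% higher without overlap, so 1 of 9 is near that share. The log2 differences of Hpgds, 0.94 (SE 0.65), and Ptges, 0.77 (SE 0.44), were above 0 in the edgeR fit, with adjusted p = 0.586 and 0.523 after Benjamini-Hochberg adjustment. Without ICH-Fabp4CKO mouse 3 that of Hpgds was 0.22. Those of Ptgs1, Pla2g4a, Alox5, Alox5ap and Ltc4s lay between -0.39 and -0.15 and that of Ptgs2 was 0.44, each smaller than its SE. The sign turned when 1 mouse was left out for Ptgs2, Pla2g4a, Alox5, Alox5ap and Ltc4s: without ICH-Fabp4CKO mouse 1 Ptgs2 was at -0.18 (and at 0.97 without ICH-Fabp4flox/flox mouse 1), without ICH-Fabp4CKO mouse 2 Pla2g4a was at 0.06, and without ICH-Fabp4flox/flox mouse 1 Alox5, Alox5ap and Ltc4s were at 0.11, 0.18 and 0.11. A p that misses the threshold does not show that the genotypes were alike.

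In sham tissue 0 of 9 members differed between genotypes by the edgeR F-test with Benjamini-Hochberg adjustment, where 0% of 14395 tested genes were higher and 0.111% lower. At an unadjusted p under 0.05 it gave 1471 genes and 3 members, Ptges, Ptgds and Ptgs2, each with a value below 0, and DESeq2 gave 150 genes at its adjusted threshold and 0 members. Ptges had a log2 difference of -0.66 (SE 0.22, edgeR adjusted p = 0.475), with all 3 Sham-Fabp4CKO mice below all 3 Sham-Fabp4flox/flox mice. It was the only 1 of the 9 without overlap, where 8.86% of all tested genes were lower and 5.97% higher without overlap. Ptgds had -0.82 (SE 0.28, edgeR adjusted p = 0.477) and Ptgs2 -1.53 (SE 0.54, edgeR adjusted p = 0.479), both with overlapping groups. The latter was at -0.76 without Sham-Fabp4flox/flox mouse 2. The last 2 rested on which mice were kept: without Sham-Fabp4flox/flox mouse 3, which had the highest choroid plexus marker sum and the lowest Ptgs2, both passed the edgeR F-test with Benjamini-Hochberg adjustment (adjusted p = 0.00455 for Ptgs2 at -1.94, and 0.00786 for Ptgds at -1.05), and the number of genes called went from 16 to 2862.

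In the interaction test, which compares the ICH effects of the genotypes, 0 of 9 members passed by edgeR with Benjamini-Hochberg adjustment, where 0.0133% of 15089 genes were higher and 0.00663% lower. At an unadjusted p under 0.05 it gave 1500 genes and 1 member, and DESeq2 gave 266 genes at its adjusted threshold and 0 members. That member was Ptges, with an interaction of 1.37 on the log2 scale (SE 0.54, adjusted p = 0.425 in edgeR with Benjamini-Hochberg adjustment). For Ptgs2 it was 1.91 (SE 0.91, edgeR adjusted p = 0.524), and 1.15 without Sham-Fabp4flox/flox mouse 2. Ptgs2 therefore passed in Fabp4CKO and not in Fabp4flox/flox mice, but its effects were not shown to differ. The interaction shares its sham and ICH mice with the comparisons above and adds no independent mice.

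**Figure D4:**
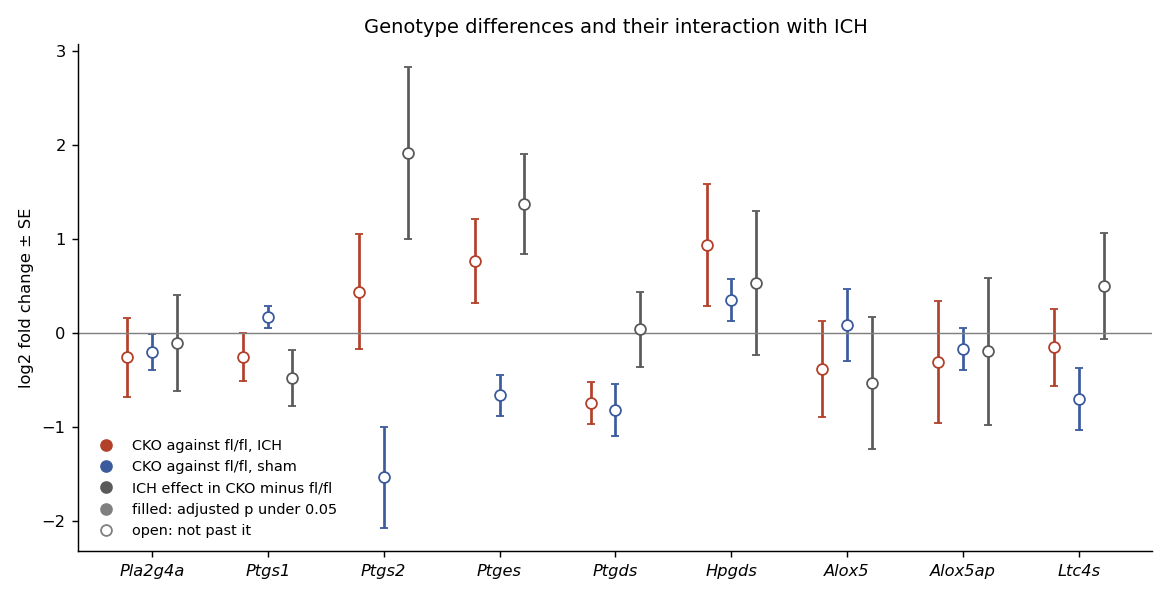
Log2 difference between Fabp4CKO and Fabp4flox/flox mice in ICH tissue (red) and sham tissue (blue), and the ICH effect in Fabp4CKO minus that in Fabp4flox/flox mice (grey), each with its SE, for the 9 tested members. Every point is open, meaning that none passed an adjusted p of 0.05.

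The ICH mice of a group differed from each other across most members at once. The share of all genes with the orders given below was not counted. Without ICH-Fabp4CKO mouse 2 the genes called in ICH against sham Fabp4CKO mice went from 5247 to 10099. That mouse therefore differed over many genes and not only over the members. Over the 8 members other than Ptgds and Alox15, ICH-Fabp4CKO mouse 2 was the lowest of its group for 8 of 8 and the lowest of all 6 ICH mice for 6 of 8, the others being Ptgs2 and Ptges, which were lowest in ICH-Fabp4flox/flox mouse 3. Among ICH-Fabp4flox/flox mice, mouse 1 was the highest for 8 of 8 and mouse 3 the lowest for 6 of 8. The neuron marker sum ran the other way: it was 4413 CPM in ICH-Fabp4CKO mouse 2, against 1816 and 1506 CPM in mice 1 and 3, and 1098, 1671 and 2821 CPM in ICH-Fabp4flox/flox mice 1, 2 and 3. Monocyte and macrophage markers summed to 66.5 CPM in ICH-Fabp4CKO mouse 2, against 366 and 452 CPM in mice 1 and 3, and to 173, 197 and 70.1 CPM in ICH-Fabp4flox/flox mice 1, 2 and 3, where mouse 1 was not the highest. Microglia markers summed to 767, 535 and 901 CPM in ICH-Fabp4CKO mice 1, 2 and 3 and to 491, 503 and 600 CPM in the ICH-Fabp4flox/flox mice, there opposite to the members. In ICH-Fabp4flox/flox, other sums fell from mouse 1 to mouse 3: endothelial 1013, 683 and 460 CPM, and border-associated macrophage 185, 115 and 54.6 CPM. Meningeal fibroblast, neutrophil, oligodendrocyte and choroid plexus sums did likewise. Astrocyte, striatal neuron, immediate early and mast cell list sums did not. ICH-Fabp4CKO mouse 2 had the lowest endothelial, macrophage, fibroblast and neutrophil sums of its group and the highest oligodendrocyte and choroid plexus sums. The part of these differences in tissue between mice in the members' values was not tested.

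**Figure D5:**
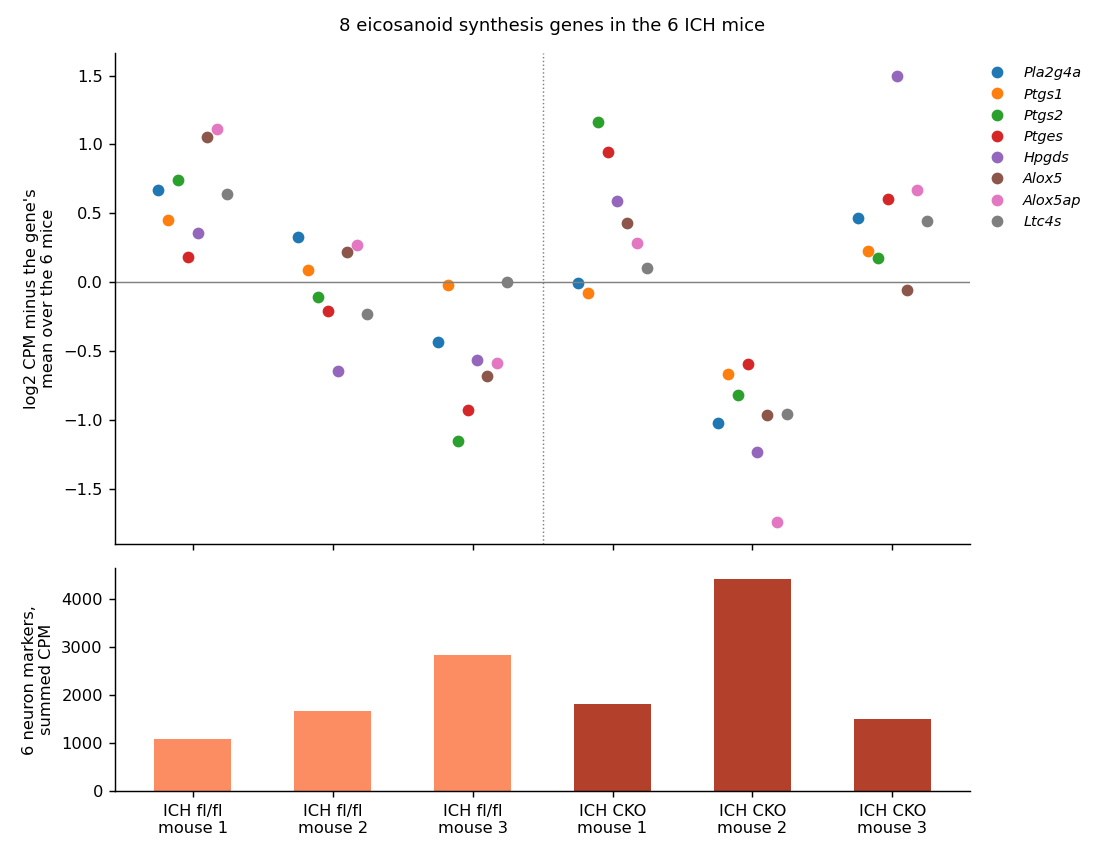
Top, log2 CPM of 8 members in each of the 6 ICH mice, minus the mean of that gene over the 6 mice; bottom, the summed CPM of 6 neuron markers in the same mice, from 0. The 8 points of ICH-Fabp4CKO mouse 2 all lie below 0, and its neuron markers, at 4413 CPM, are the highest of the 6.

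Marker lists of microglia and other leukocytes are given beside these results, and other lists that moved with the ICH comparisons follow them. Over all tested genes 26.2% rose in Fabp4flox/flox and 24.5% in Fabp4CKO mice. Over the 6 microglia markers the sum was 175 to 206 CPM in sham and 491 to 901 CPM in ICH mice, and 5 of 6 rose in each genotype. The 6 monocyte and macrophage markers summed to 0.627 to 4.34 CPM in sham and 66.5 to 452 CPM in ICH mice, and 6 of 6 rose in each genotype. The 8 neutrophil markers summed to 4.90 to 13.2 CPM in sham, 52.3 to 91.3 CPM in ICH-Fabp4flox/flox, where Ly6g was at 0 in all 3 mice, and 71.5 to 322 CPM in ICH-Fabp4CKO. Markers of mast cells, basophils and eosinophils, cells known for Hpgds, Ltc4s and Alox15, summed to at most 4.30 CPM in any mouse, and the mast cell gene Cpa3 had 0 reads in each ICH-Fabp4flox/flox mouse and 3, 2 and 1 reads in the ICH-Fabp4CKO mice. The 1 marker of that list that passed the filter, the eosinophil gene Epx, rose by 2.14 on the log2 scale in Fabp4flox/flox and fell by 1.77 in Fabp4CKO mice (edgeR adjusted p = 0.00716 and 0.0354). Endothelial markers summed to 205 to 221 CPM in sham, 460 to 1013 CPM in ICH-Fabp4flox/flox and 244 to 354 CPM in ICH-Fabp4CKO mice. Of 6, 6 rose in Fabp4flox/flox and 2 in Fabp4CKO mice. In that order, 3 and 5 of 6 border-associated macrophage markers rose, and 3 and 3 of 6 astrocyte markers, with 1 and 0 lower. Of tested meningeal fibroblast markers, 5 of 7 and 6 of 6 rose. Of 6 neuron markers 5 and 0 fell, where 19.3% and 11.1% of all tested genes fell. Which cells carried the members' transcripts was not tested.

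Among 65 other genes of the pathway, listed with earlier results of these data known, 62 were in the table. In Fabp4flox/flox mice 16 of 43 tested rose after ICH and 3 fell, where 26.2% of all tested genes rose and 19.3% fell. The median log2 fold change of the 43 was 0.55. In Fabp4CKO mice 15 of 41 rose and 1 fell, where 24.5% of all tested genes rose and 11.1% fell. The median of the 41 was 0.30. None of the 43, 41 and 45 genes tested passed in the ICH genotype comparison, the sham genotype comparison and the interaction (edgeR with Benjamini-Hochberg adjustment; the share over all genes is given above for each).

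Upstream, beside 26.2% and 24.5% of all tested genes, 2 of the 10 tested phospholipases and arachidonate handlers rose in both Fabp4flox/flox and Fabp4CKO mice. These were the lysophospholipid acyltransferase genes Lpcat2, by 1.68 and 2.15 on the log2 scale in Fabp4flox/flox and Fabp4CKO mice, and Lpcat3, by 1.56 and 1.77. Mboat7, another acyltransferase gene, which prefers arachidonic acid, did not pass, at -0.49 and -0.68 (edgeR adjusted p = 0.0557 and 0.0508). Acsl4, which activates arachidonic acid, fell by 0.58 in Fabp4flox/flox mice and did not pass in Fabp4CKO mice, at 0.15. Of the 10 tested terminal synthases and catabolic enzymes, 3 rose and 1 fell in Fabp4flox/flox and 4 rose and 1 fell in Fabp4CKO mice. Over all tested genes 26.2% rose and 19.3% fell in the first comparison, and 24.5% rose and 11.1% fell in the second. Tbxas1, the thromboxane synthase gene, went from 1.7 to 3.4 CPM over the sham mice to 18.5 to 123 CPM over the ICH mice, with log2 fold changes of 3.69 and 5.04. Hpgd, the first enzyme of prostaglandin breakdown, rose by 2.25 and 2.63, and Ptgr1, a reductase that acts after it, by 3.51 and 3.36. Ptgr2, a further reductase, passed in Fabp4CKO mice at 0.44 and not in Fabp4flox/flox mice at 0.22. Cbr1, a carbonyl reductase that acts on prostaglandin E2, fell by 0.73 and 0.77, and its relative Cbr3 did not pass, at 0.38 and -0.48. Of the transporters, Abcc4, an exporter of prostaglandin E2, rose by 1.34 and 1.18, and Slco2a1, an importer, passed in Fabp4CKO mice at 2.76 and not in Fabp4flox/flox mice at 1.11.

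Of the leukotriene enzymes, Lta4h, which makes leukotriene B4 and competes with Ltc4s for the same substrate, did not pass, with log2 fold changes of 0.18 (SE 0.12) and 0.22 (SE 0.17). Cyp4f18, which breaks leukotriene B4 down in mouse myeloid cells, had 0 to 9 reads in the sham mice and 131 to 522 reads in the ICH mice. Dpep2, a dipeptidase of the cysteinyl leukotrienes, had 0 to 6 reads in sham and 40 to 337 reads in ICH mice in the row that was read. Another row of that symbol in the count table was not read. Cyp4f18 and this row of Dpep2 passed in both genotypes. Abcc1, which exports leukotriene C4, rose by 0.96 and 1.21. Ggt5, which converts leukotriene C4 to D4, passed in Fabp4flox/flox mice at 1.48 and not in Fabp4CKO mice at 1.36. Mgst2, another enzyme able to make leukotriene C4, had 29, 14 and 12 reads in ICH-Fabp4flox/flox mice, where it passed, 0 to 4 in ICH-Fabp4CKO mice, where it failed the filter, and at most 1 in any sham mouse. Aloxe3, an epidermal-type lipoxygenase gene, fell by 1.07 in Fabp4flox/flox mice and did not pass in Fabp4CKO mice, at -0.55.

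Of the receptors, Cysltr1, which binds cysteinyl leukotrienes, rose by 2.79 and 4.24 on the log2 scale, and Ptger4, which binds prostaglandin E2, by 1.99 and 2.77. Ltb4r1, the high-affinity leukotriene B4 receptor, had 0 to 4 reads in sham and 16 to 55 reads in ICH mice and passed in both genotypes. Ptger2 passed in Fabp4flox/flox mice at 1.72 and not in Fabp4CKO mice at 1.61. The prostacyclin receptor gene Ptgir had 44, 43 and 21 reads in ICH-Fabp4flox/flox and 54, 1 and 77 reads in ICH-Fabp4CKO mice, against at most 4 in any sham mouse, so that ICH-Fabp4CKO mouse 2 was again low. Fpr2, a receptor of lipoxins and formyl peptides, had 44, 21 and 10 reads in ICH-Fabp4flox/flox, where it did not pass the filter on low counts, and 141, 18 and 47 reads in ICH-Fabp4CKO. The prostaglandin D2 receptor genes were low, with 0 to 10 reads of Ptgdr and 0 to 4 reads of Ptgdr2 in any mouse.

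The genes whose pattern over the 12 libraries was most like each member were found as those with the smallest root mean square difference of mean-centred log2 CPM, among 15089 genes. For Pla2g4a it was Syngr2, at 0.138, and for Ptgs1 it was Mgst1, at 0.167. For Alox5ap it was Ftl1, which encodes a ferritin subunit, at 0.243, for Alox5 Sbno2, at 0.246, and for Hpgds Tgfb1, at 0.249. Ptgds was nearest to Opn3, at 0.270, Ltc4s to Vamp8, at 0.279, and Ptges to Ehd4, at 0.279. Ptgs2 had the largest distance, with Gprc5a nearest at 0.424. These distances are not scaled to the spread of each member, whose SD of log2 CPM over the 12 libraries was 0.83 for Ptgds, the smallest, 1.41 for Ptgs2 and 2.29 for Alox5ap, the largest. The list describes likeness in these 12 libraries, which share the step from sham to ICH.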

How the data were processed

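The values, deposited by the authors in 1 table, are estimated counts per gene for the 12 libraries, made by the authors without normalization, with symbols for all but 83 genes. Libraries were made from polyA RNA with a kit that does not mark strand. The submitters' processing notes name Bowtie2 2.2.8, HISAT2, StringTie 1.3.1 and DESeq2 without roles. The genome build and the counting tool are not given in the sources used here. Values were rounded to whole numbers. No pair of libraries of a group was close enough to be a copy. Each library is 1 mouse.

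Each pair of groups was compared in R 4.3.3 with edgeR 4.0.16 on its 6 libraries, and the interaction on all 12 (filterByExpr at 10 counts per library and 15 in total, TMM, quasi-likelihood F-test, Benjamini-Hochberg over all tested genes, threshold 0.05). Scripts were tested on simulated data. SE is the absolute log2 fold change divided by the square root of F. Alternatives were relative log expression, total counts, DESeq2 1.42.0, no filter, 1 fit over all 12 libraries, the replicate number as a block, and each library left out. Levels are CPM over TMM-scaled totals, with log2 values at a prior count of 2. Exon lengths and overlaps came from the GENCODE mouse annotation and promoters from RefSeq. The exon length of a gene is that of all its annotated exons merged, not of the transcript expressed. Orders and ratios per kb depend on this choice. At total counts of 15650813 to 22406216, a gene at or under 3 reads in a library was taken as at the floor, for counting error only.

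All 10 members are named. The members, the pathway lists and the marker lists were chosen with earlier results of these data known. Named pathway genes are those that passed, those whose level is needed beside a member, and Mboat7, Cbr3 and the prostaglandin D2 receptors, which were chosen after their values were seen. Figures were drawn with matplotlib 3.10.9.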

Additional observations from a re-analysis of the deposited data

How the results depend on the processing

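Outside the settings that left out 1 library, the members' calls changed in 1 case: with the replicate number as a block, Ptgs2 passed in ICH against sham Fabp4flox/flox mice (log2 fold change 1.26, edgeR adjusted p = 0.0449, against 0.176), which made 8 members higher in place of 7. The numbers were not treated as pairing the mice, because same-numbered libraries correlated at 0.196, 0.023 and 0.127 in that comparison and at -0.575 to 0.311 in the others, not every pair being over 0.1. The only change of direction was Ptgds in the interaction, at -0.00403 with the block. Genes called in all moved in the genotype comparisons: after ICH, 578 with DESeq2 and 362 with all 12 libraries in 1 fit against 0; in sham, 150 with DESeq2 against 16; in the interaction, 266 with DESeq2 and 1 with the block against 3. No member was among these calls. In ICH against sham Fabp4CKO mice all genes called were 5247, 7697 with DESeq2 and 3684 with the block, and those lower 1642 and, with DESeq2, 3543, with the members' calls the same.

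With 1 library left out, members lower in Fabp4flox/flox mice numbered 0 to 1 (7 higher throughout) and genes called 4181 to 8165. In Fabp4CKO mice members higher numbered 2 to 8, members lower 0 to 1 and genes called 751 (without Sham-Fabp4CKO mouse 3) to 10099 (without ICH-Fabp4CKO mouse 2). Genes called were 0 to 2 between the ICH genotypes, 0 to 2862 between the sham genotypes, with 0 to 2 members lower, and 0 to 371 in the interaction, the highest without ICH-Fabp4CKO mouse 2. The genotype difference after ICH ranged from -0.18 to 0.97 for Ptgs2, -0.62 to 0.060 for Pla2g4a, -0.76 to 0.11 for Alox5, -0.76 to 0.18 for Alox5ap and -0.46 to 0.16 for Ltc4s. In sham it ranged from -0.18 to 0.35 for Alox5. The interaction ranged from -0.35 to 0.27 for Ptgds, -0.18 to 0.99 for Hpgds, -0.47 to 0.21 for Pla2g4a, -0.87 to 0.019 for Alox5 and -0.64 to 0.36 for Alox5ap. None of these passed. The cause of these changes was not tested. Depth limits Alox15, with at most 9 reads in a library.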
